A study of Homo sapiens and Mus musculus with 54 samples.

Results

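In HepG2, a human liver cancer cell line, 3943 H3K27ac regions appeared in the peak list of an AhR inhibitor experiment at positions absent from the list of the experiment without DMSO or inhibitor. They were chosen by comparing exact chromosome, start and end between the lists, and they made up 4.06% of the 97145 regions in the first list and 3.56% of the 110609 regions in either list. They are called the inhibitor-only regions after the list they stand in. The name describes a list and not an effect of the inhibitor, because that experiment included control cells with DMSO and B2_minus cells with DMSO as well as B2_minus cells with AhRinh. Each list was matched to an experiment by its name, and no source used here states which libraries contributed to it. The other regions were the 93202 present in both lists, called shared, and the 13464 present only in the list without DMSO or inhibitor, called untreated-only.

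The inhibitor experiment had 2 control libraries with DMSO, 2 B2_minus libraries with DMSO and 2 B2_minus libraries with AhRinh, all HepG2 H3K27ac ChIP-seq on day 12. The untreated experiment had 5 Cont and 5 B2_minus H3K27ac libraries on day 12, and AhR and C/EBPα were each profiled in 2 Cont and 2 B2_minus libraries without DMSO or inhibitor. B2_minus cells lacked vitamin B2 in the labels' terms, and the labels used here do not name the inhibitor. The lists hold positions with no value for a library, so the depth is unknown, no difference between conditions could be tested, and the libraries that gave rise to a region cannot be told apart.

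H3K27ac, acetylation of lysine 27 on histone H3, marks active enhancers and promoters. The aryl hydrocarbon receptor (AhR) is a transcription factor that enters the nucleus when it binds a ligand, pairs with ARNT and contacts DNA containing GCGTG. C/EBPα is a basic leucine zipper factor that maintains hepatocyte gene expression, and many liver enhancers carry it. Vitamin B2, riboflavin, is the precursor of the flavin cofactors FMN and FAD.

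The sequence of an inhibitor-only region was read where the region overlapped a RefSeq promoter window of GRCh38.p14, which spans 250 bases before to 50 bases after a gene start. The windows of 45 genes were overlapped by 44 regions, and 35 of these genes were long noncoding RNAs. Protein-coding genes held 21.3% of the overlapped windows. They held 22.7% of the windows overlapped by shared regions, 17.9% of those overlapped by untreated-only regions and 63.1% of all windows. All 3 of these regions that carried an AhR or C/EBPα peak are shown first, followed by 2 regions without a factor peak at the starts of protein-coding genes. Each line gives the 250 bases before the gene start, 5′ to 3′ on the gene's strand, with the bases covered by the inhibitor-only region in capitals.
LOC101927432: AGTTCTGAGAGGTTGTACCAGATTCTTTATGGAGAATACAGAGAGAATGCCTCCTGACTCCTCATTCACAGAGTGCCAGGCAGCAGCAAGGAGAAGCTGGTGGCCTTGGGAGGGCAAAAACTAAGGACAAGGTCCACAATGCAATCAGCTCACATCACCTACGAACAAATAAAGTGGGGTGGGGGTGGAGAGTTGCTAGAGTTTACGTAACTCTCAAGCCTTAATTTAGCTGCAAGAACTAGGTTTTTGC
LOC105376031: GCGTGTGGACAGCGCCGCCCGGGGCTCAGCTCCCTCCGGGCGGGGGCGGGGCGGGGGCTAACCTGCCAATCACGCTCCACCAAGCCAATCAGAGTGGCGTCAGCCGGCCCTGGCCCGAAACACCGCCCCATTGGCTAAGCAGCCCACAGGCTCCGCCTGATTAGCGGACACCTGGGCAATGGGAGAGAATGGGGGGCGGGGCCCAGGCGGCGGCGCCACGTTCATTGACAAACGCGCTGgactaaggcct
LOC105374786: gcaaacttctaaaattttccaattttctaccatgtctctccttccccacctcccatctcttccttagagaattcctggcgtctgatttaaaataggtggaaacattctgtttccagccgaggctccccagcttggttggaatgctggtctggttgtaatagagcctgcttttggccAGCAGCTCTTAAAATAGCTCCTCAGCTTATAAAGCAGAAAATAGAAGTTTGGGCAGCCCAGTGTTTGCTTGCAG
SCN7A: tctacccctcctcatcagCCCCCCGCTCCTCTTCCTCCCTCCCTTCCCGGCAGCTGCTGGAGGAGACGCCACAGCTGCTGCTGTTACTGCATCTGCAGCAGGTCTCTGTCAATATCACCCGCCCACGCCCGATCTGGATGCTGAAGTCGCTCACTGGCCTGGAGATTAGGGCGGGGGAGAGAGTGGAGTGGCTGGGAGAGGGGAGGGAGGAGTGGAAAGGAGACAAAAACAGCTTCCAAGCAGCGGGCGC
DMBX1: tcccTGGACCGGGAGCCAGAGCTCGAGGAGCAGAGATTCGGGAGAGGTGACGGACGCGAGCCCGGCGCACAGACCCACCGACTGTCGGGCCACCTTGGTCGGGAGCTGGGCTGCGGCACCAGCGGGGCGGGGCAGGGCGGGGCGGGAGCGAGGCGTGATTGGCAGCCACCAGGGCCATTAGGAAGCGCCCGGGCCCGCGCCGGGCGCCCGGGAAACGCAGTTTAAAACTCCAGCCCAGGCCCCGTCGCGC

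The region at LOC101927432 (chr3:133381727-133382046, minus strand gene) lay inside TMEM108 and covered all 250 bases shown. Its AhR peak at 133381748 to 133381979 and its C/EBPα peak at 133381735 to 133381992 both lay within the region. No GCGTG occurs in the 250 bases on either strand. The region at LOC105376031 (chr9:37027556-37027933, plus strand gene) lay inside PAX5, which encodes a B-cell transcription factor, and carried an AhR peak at 37027617 to 37027830. It covered 239 of the 250 bases, among them the AhR core motif starting 250 bases before the gene start and again, on the opposite strand, 180 bases before it. The region at LOC105374786 (chr2:67650835-67651104, minus strand gene) covered the last 74 bases, which hold the FOX motif TGTTTGC 13 bases before the start, and overlapped a C/EBPα peak with a merge number of 3. At SCN7A, a sodium channel gene, the region chr2:166494227-166494481 covered 232 of the 250 bases and held the AhR core on the opposite strand 127 bases before the start. At DMBX1, a homeobox gene, the region chr1:46489590-46489886 covered 246 bases and held GCGTG 98 bases before the start. Neither the SCN7A nor the DMBX1 region overlapped an AhR peak, so core motifs occurred in windows with and without one. SCN7A and DMBX1 were picked as examples after their values were seen.

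Across the 47 overlapped windows, the AhR core GCGTG, searched on both strands, was present in 15, or 31.9% (95% Wilson interval 20.4 to 46.2%). It was present in 31.4% of the 1006 windows overlapped by shared regions and in 36.5% of all 35116 windows, and in 16% (10.3 to 24.2%) of the 106 windows overlapped by untreated-only regions. The AP-1 motif TGANTCA was in 2 of the 47 windows, 4.26% (1.17 to 14.2%), against 14.8% for shared regions, 14.2% for untreated-only regions and 7.71% of all windows. The C/EBP motif, TTGCNNAA or its reverse complement TTNNGCAA, was in 3 windows, 6.38% (2.19 to 17.2%), against 13.1% for shared regions, 17.9% for untreated-only regions and 10.5% of all windows. The nuclear receptor motif AGGTCA was in 12.8% of the windows, against 19.4% for shared regions, 23.6% for untreated-only regions and 13.8% of all. FOX motifs, TGTTTAC or TGTTTGC, were in 8.51%, against 12.4% for shared regions, 13.2% for untreated-only regions and 7.17% of all. The FOX and C/EBP motifs share the letters TTGC and can overlap in a sequence, and 47 windows give wide intervals. Some of the 47 windows overlap each other and share sequence, while the intervals count each window as separate. Median GC content was 54.7% in the windows of inhibitor-only regions, 55.3% in those of shared regions, 52.8% in those of untreated-only regions and 58.7% in all windows. These windows held 1.16% of the 3786 inhibitor-only regions on chromosomes with windows, so they describe gene starts and not the regions as a whole.

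Few inhibitor-only regions held a factor peak. An AhR peak overlapped 369 of the 3943, or 9.36% (8.49 to 10.3%), against 38.7% of all regions in the inhibitor list. A C/EBPα peak overlapped 375, or 9.51% (8.63 to 10.5%), against 29.7% of that list. The AhR share differed from that of shared regions by -30.6 percentage points (95% interval of the difference -31.5 to -29.6) and from that of untreated-only regions by -13.9 points (-15 to -12.7). For C/EBPα the differences were -21.1 points (-22 to -20.1) and -7.69 points (-8.78 to -6.55). AhR and C/EBPα were mapped in libraries separate from those that defined the regions. Their labels, like those of the untreated H3K27ac libraries, name no DMSO and no inhibitor, and the part of this common condition in the differences was not tested. The intervals cover counting error over regions, which are not independent of their neighbours.

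Both factors met in 141 inhibitor-only regions (3.58%), AhR stood alone in 228 (5.78%) and C/EBPα alone in 234 (5.93%). The remaining 3340, or 84.7%, overlapped neither factor, against 53.2% of shared and 70.4% of untreated-only regions. Among regions with an AhR peak, 38.2% of the inhibitor-only ones also had C/EBPα, against 59.4% of shared (difference -21.2 points, -26 to -16.1) and 46.5% of untreated-only regions (-8.24 points, -13.4 to -2.89). The AhR peaks inside them were also less often merged. The peak names end in a number read here as how many peaks were joined into the entry, the merge number, and entries of 2 or more are called merged. Only 76 of the 369, or 20.6% (16.8 to 25%), overlapped a merged AhR peak, against 51.9% in shared (difference -31.4 points, -35.2 to -26.9) and 32.1% in untreated-only regions (-11.5 points, -15.7 to -6.8). Of the 375 regions with C/EBPα, 63.5% (58.5 to 68.2%) overlapped a merged C/EBPα peak, against 73.4% and 68.1%, and the difference from untreated-only regions, -4.62 points (-9.95 to 0.468), includes 0. The factor peaks sat centrally, with a median of 22.5 bp between the centres of the region and its AhR peak and 30 bp for C/EBPα. They did so in the other regions too, with medians of 27.5 bp (shared) and 23.5 bp (untreated-only) for AhR. For C/EBPα these medians were 40.5 and 31 bp.

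The factor shares differed with merge number in shared and untreated-only regions, while in inhibitor-only regions the interval of that difference included 0. Merge number and width come from the lists used to choose the regions. AhR peaks overlapped 9.6% of the merged and 8.78% of the single inhibitor-only regions, a difference of 0.822 points (-1.22 to 2.7). In shared regions the same difference was 30.4 points (29.8 to 31) and in untreated-only regions it was 10.4 points (9.02 to 11.8). C/EBPα gave 9.89% of merged and 8.61% of single inhibitor-only regions, a difference of 1.28 points (-0.757 to 3.16), against 20.8 points in shared and 4.77 points in untreated-only regions (3.48 to 6.04). By width, the AhR share of inhibitor-only regions ran from 7.42% (5.66 to 9.68%) in the narrowest class to 13.8% (10.2 to 18.3%) in the widest, and the C/EBPα share from 9.85% (7.8 to 12.4%) to 8.7% (5.91 to 12.6%). Within each of 10 classes of width and merge number, the inhibitor-only share was the lower for both factors. Weighted to the widths and merge numbers of the inhibitor-only regions, shared regions had AhR in 38.2% and C/EBPα in 29.1%, and untreated-only regions had them in 23.8% and 17.4%.

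**Figure D1:**
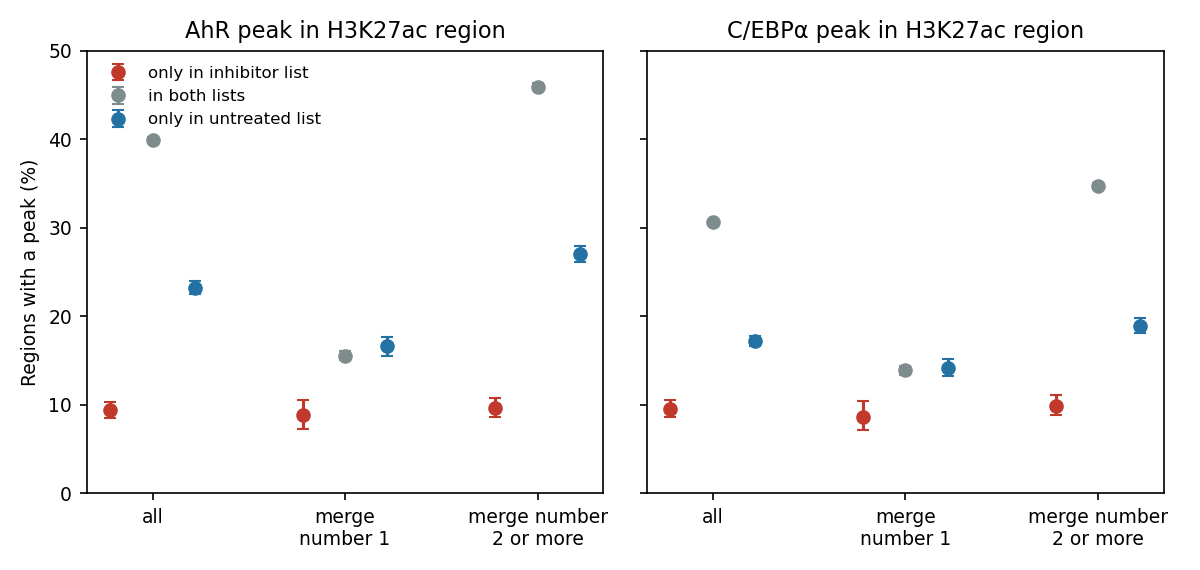
Share of H3K27ac regions (%, vertical axis) that overlapped an AhR peak (left) or a C/EBPα peak (right) by at least 1 bp, for all regions and by merge number. Points are shares with 95% Wilson intervals; the inhibitor-only points stay between 8.61% and 9.89%, while the shared points rise with merge number to 45.9% for AhR and 34.7% for C/EBPα.

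Factor peaks were also distant from most inhibitor-only regions. The nearest AhR peak centre lay a median of 17704 bp away, against 694 bp for shared and 8887 bp for untreated-only regions, and 912 inhibitor-only regions (23.1%) had none within 50 kb. The nearest C/EBPα centre lay a median of 15795 bp away, against 1792 and 10469 bp. The lower share held on each of the 23 chromosomes compared (1 to 22 and X) for both factors, set against shared regions on the same chromosome. Leaving out a chromosome at a time moved the AhR share between 8.97% and 9.68% and the C/EBPα share between 9.33% and 9.8%.

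The 10 inhibitor-only regions with both factors that ranked first by merge number and then width lay inside a protein-coding gene in 3 cases (MCTP1, KAZN and SLIT3) and outside one in 7. The region chr13:23969710-23970094 lay 9708 bp from SPATA13, a guanine nucleotide exchange factor gene, and overlapped an AhR peak with a merge number of 2 and a C/EBPα peak with a merge number of 3. The region chr5:95181642-95182012 lay inside MCTP1, which encodes a calcium-binding membrane protein, with the same pair of merge numbers. The nearest region centre of the untreated list lay 9161 and 3554 bp from these 2 regions, beside a median of 9010 bp for all inhibitor-only regions. The widest of the 10, chr18:11658945-11659406, lay 29858 bp from GNAL, a G protein subunit gene, and 73967 bp from the nearest untreated region. The regions outside genes also included those nearest to TMEM243, C12orf75, GLOD5 and ZBTB44, at 5574 to 40811 bp, and one whose nearest gene, LSAMP, was 1031715 bp away. Of all 141 regions with both factors, 57 lay inside a protein-coding gene and 36 had merged peaks of both factors.

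Spacing, width and number of joined peaks belong to the lists the rule used and are given as description only. None of the 3943 regions overlapped a region of the untreated list by even 1 bp. Regions with shared coordinates carried the same name and merge number in both lists in all 93202 cases, and the 110609 regions of both lists held 0 overlapping pairs. Lists taken from a single merged set would show this by construction, so the absence of overlap is a property of the lists and not a measurement of acetylation. The nearest region centre of the untreated list lay a median of 9010 bp away (quartiles 2696 and 26982 bp), with a minimum of 221.5 bp. Only 461 (11.7%) lay within 1 kb of one, against 46.5% of shared regions measured to their nearest other neighbour, and 563 (14.3%) lay over 50 kb from any, against 2.95%. Untreated-only regions were close to the inhibitor-only ones in this respect, with a median of 7655 bp, 16.6% within 1 kb and 12.7% over 50 kb.

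**Figure D2:**
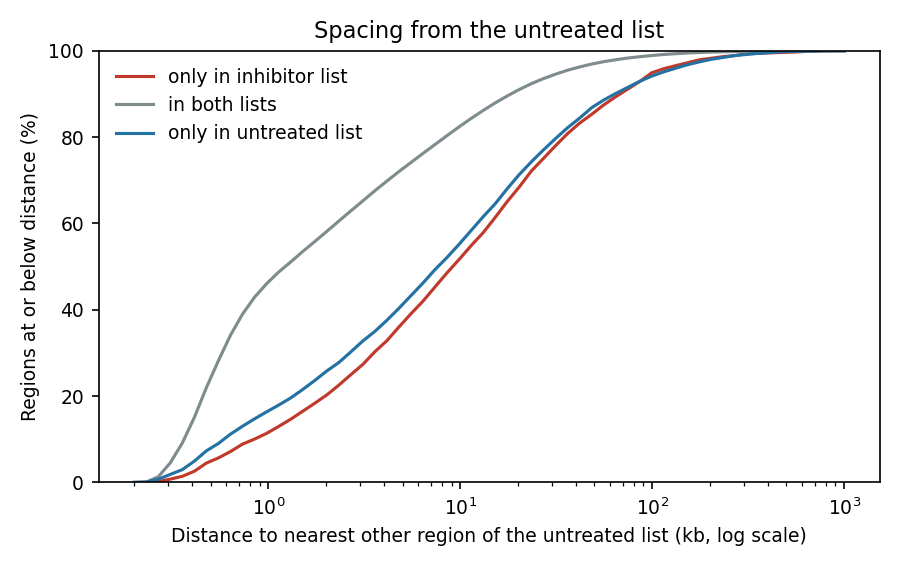
Cumulative share of regions (%, vertical axis) by distance from the region centre to the nearest other region centre of the untreated list (kb, log scale). The curves of the inhibitor-only and untreated-only regions, with medians of 9010 and 7655 bp, lie to the right of the curve of shared regions, with a median of 1223 bp.

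The AhR share was 6.51% (4.6 to 9.14%) in inhibitor-only regions within 1 kb of an untreated region, 8.68% at 1 to 10 kb, 9.77% at 10 to 50 kb and 12.6% (10.1 to 15.6%) beyond 50 kb. Shared regions ran from 35.6% to 46.7% and untreated-only regions from 16.3% to 29.8% over the same classes. In all 3 kinds of region the AhR share was highest beyond 50 kb.

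Inhibitor-only regions were narrow. Their median width was 269 bp (quartiles 239 and 294, range 200 to 643), against 287 bp for shared regions, which reached 3070 bp, and 261 bp for untreated-only regions. Only 21 (0.533%) exceeded 500 bp, against 6.48% of shared and 0.186% of untreated-only regions. The merge number was 1 for 1173 regions, 2 for 2769 and 3 for 1, the last at chr18:79556842-79557387, 27519 bp from NFATC1, a transcription factor gene of activated T cells. The widest region, chr20:64159387-64160030, lay 4422 bp from MYT1, a neural zinc finger factor gene. The next widest lay near VENTX and FZD2 and inside SP140 and RASGEF1A, and none of the 5 overlapped an AhR or C/EBPα peak. Among the widest regions with a merge number of 2 were those nearest to SOX4, RASGEF1A and USP38, also without a factor peak.

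The regions were spread over all autosomes and X in unequal shares of the inhibitor list. Chromosome 13 had the highest share, 5.5%, followed by chromosome 11 with 5.37% and chromosome 15 with 5.18%. Chromosome X had the lowest, 30 of 1360 regions or 2.21%, and chromosomes 14, 16, 17 and 20 had 2.7%, 2.94%, 3.04% and 3.04%. Untreated-only regions, as a share of the untreated list, were also low on chromosomes 14, 16, 17 and 20, at 9.46%, 6.87%, 8.11% and 4.06%. Their share was low on chromosomes 2 and 6 as well, at 8.65% and 9.64%, and highest on X, at 23.7%. Chromosome Y had 0 of 120, which leaves room for up to 3.1% by the Wilson interval.

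**Figure D3:**
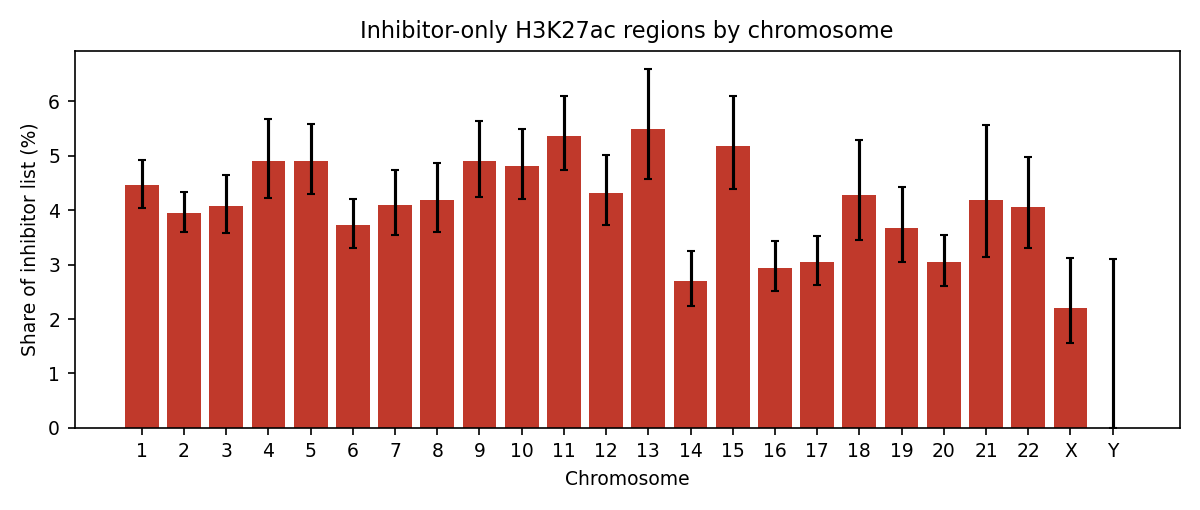
Inhibitor-only regions as a share of the inhibitor list (%, vertical axis) on each chromosome, with 95% Wilson intervals as bars. Chromosomes 14, 16, 17, 20 and X are lowest, at 2.21% to 3.04%, and chromosome 13 is highest, at 5.5%.

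Inhibitor-only regions lay mostly outside protein-coding genes. Of the 3943, 1609 (40.8%, 39.3 to 42.3%) overlapped or touched a gene body, and such regions are called inside a gene. This share was 12.3 points below that of shared regions (-13.9 to -10.8) and 2.16 points above that of untreated-only regions (0.428 to 3.91). Another 893 (22.6%) lay over 50 kb from every protein-coding gene, against 14.8% of shared and 24% of untreated-only regions. Within 5 Mb of the first or last RefSeq gene of a chromosome lay 595 regions, 15.1% (14 to 16.2%), against 11.8% of shared regions (difference 3.27 points, 2.16 to 4.44), 10.1% of untreated-only regions and 13.4% of protein-coding genes. The 5 Mb limit was chosen after the data were seen. Inhibitor-only regions there had AhR in 6.55% (4.83 to 8.84%), against 9.86% (8.89 to 10.9%) elsewhere. Shared regions, with 28.6% against 41.5%, and untreated-only regions, with 14.5% against 24.2%, were also lower there.

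Of the 3786 inhibitor-only regions on chromosomes with RefSeq promoter windows, 82 (2.17%) lay within 1 kb of a gene start and 165 (4.36%) within 3 kb. The share within 3 kb was not separated from the 4.81% of shared regions (difference -0.448 points, -1.07 to 0.263). The share exceeded that of untreated-only regions, 3.63%, by 0.724 points (0.0297 to 1.49). The first 500 bp held 60 inhibitor-only regions, 1.58%, and the count rose from 16 at 2500 to 3000 bp to 61 at 3000 to 3500 bp. Shared regions rose from 585 to 1803 and untreated-only regions from 61 to 197 across the same step. All 3 kinds of region had lower counts per 500 bp between 500 and 3000 bp than in the bins on either side of that range. The sources used here do not say whether regions near gene starts were left out of the lists. The shares within 1 kb and 3 kb of a start are therefore not read as promoter acetylation.

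**Figure D4:**
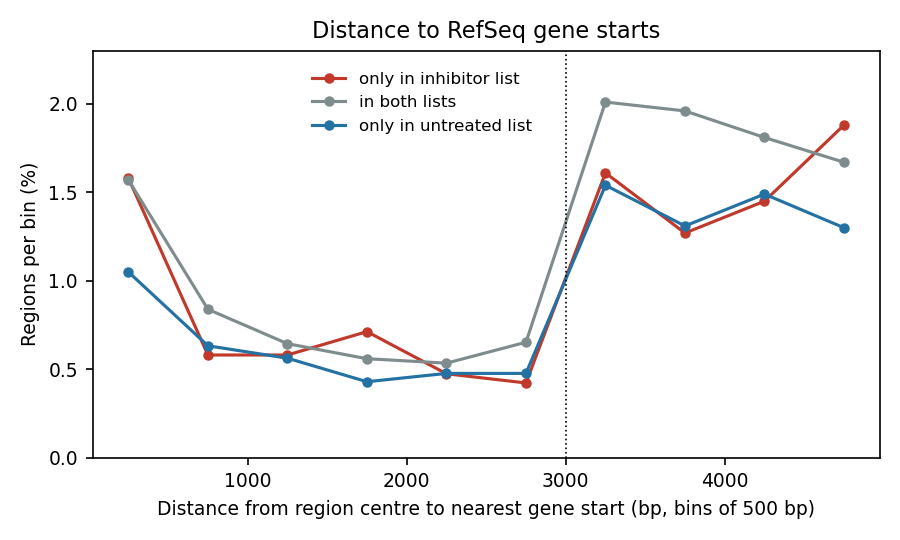
Share of regions per 500 bp bin (%, vertical axis) by distance from the region centre to the nearest RefSeq gene start (bp), with a dotted line at 3000 bp. In the inhibitor-only regions the count rises from 16 to 61 across the line, and the other regions rise there too.

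Assigned to the nearest protein-coding gene body within 50 kb, 3050 regions reached 2400 of 19974 genes, 12% of them. A single region fell to 1936 of these genes, 2 regions to 351 and 3 or more to 113. Most, 2037 or 84.9%, also had a shared region, against 64.2% of all protein-coding genes. Genes with an inhibitor-only region were long, with a median of 59.9 kb against 38.1 kb for genes with a shared region and 24.2 kb for all genes. Gene length was not adjusted for.

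CDH4, which encodes the adhesion protein R-cadherin (gene ID 1002, chromosome 20, 61252261 to 61940617, plus strand), had the most, with 14 inhibitor-only regions. All 14 lay inside the gene, were 203 to 535 bp wide, and had a merge number of 1 in 9 cases and 2 in 5. Along the same 688 kb lay 18 shared regions and 5 untreated-only regions, 4 AhR peaks and 5 C/EBPα peaks. None of the 14 overlapped an AhR peak, and 1, at chr20:61885041-61885323, overlapped a C/EBPα peak. Between 61798802 and 61885323, 5 consecutive inhibitor-only regions had no region of the untreated list between them, the longest such run in the genome. Of the others, 7 runs held 4 regions, 34 held 3, 311 held 2, and 3186 regions stood singly between untreated-list regions.

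**Figure D5:**
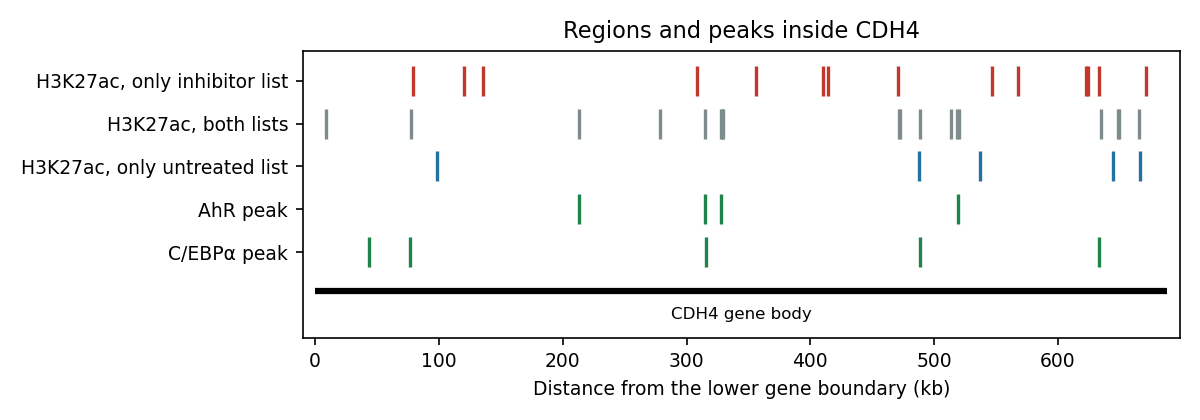
Positions of H3K27ac regions and factor peaks inside CDH4, as distance from the lower gene boundary (kb, horizontal axis), with each tick at a region or peak and the gene body as a black bar. The 14 inhibitor-only regions (top row) are spread along the gene, and the 4 AhR peaks lie away from them.

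The other 14 of the 15 genes with the most inhibitor-only regions had 5 to 8 each. Each of the 14 also had untreated-only regions, from 1 at NEURL1B to 9 at TNS1. The lengths of the 14 genes ran from 50.3 kb (NEURL1B) to 2474 kb (RBFOX1) and were not adjusted for. CDH13, a cadherin anchored to the membrane by a lipid, had 8 beside 11 shared regions. KIF1A, a kinesin that carries synaptic vesicle precursors, had 8 beside 7 shared regions. RBFOX3, the neuronal splicing factor known as NeuN, had 7 beside 5 shared and 8 untreated-only regions, and its relative RBFOX1 had 5 beside 13 shared. KLHL29, of the kelch family, had 7 beside 18, and MEGF6, a protein of epidermal growth factor-like repeats, had 6 beside 4. TNS1, which encodes the focal adhesion protein tensin, had 6 beside 55 shared regions, and GSE1 had 5 beside 184, so inhibitor-only regions also occurred amid dense acetylation. SORCS2, a sortilin-family receptor, and TRPM3, a cation channel, had 5 each beside 31 and 19 shared regions. ADAMTSL1, DENND3, NEURL1B and SLC45A4 also had 5 each, as did ZNF423, which ties with the last of the 15.

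The densest 100 kb held 7 inhibitor-only regions on chromosome 8, from 141169098 to 141239656, at DENND3, a regulator of Rab GTPases, and SLC45A4, a solute carrier gene. Between them lay 4 shared and 0 untreated-only regions. Only the last of the 7, at 141239357 to 141239656 inside SLC45A4, overlapped an AhR and a C/EBPα peak.

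Of 357 genes in 21 lists of liver, signalling and marker genes, 36 had an inhibitor-only region, 10.1%, a share near the 12% of all genes. List genes with a single region are named after their values were seen. AHR, its repressor AHRR, the AhR-induced P450 genes CYP1A1 and CYP1B1, and TIPARP, an AhR-induced ADP-ribosyltransferase, had 0 inhibitor-only regions beside 4, 6, 2, 1 and 7 shared ones. In the AhR list 1 of 20 genes had any: TNFAIP2, a gene induced by tumour necrosis factor, with 2 regions and no AhR peak in either. In the list of hepatocyte identity, APOB, the apolipoprotein of very low density lipoprotein, was the 1 of 29 genes with a region, while 25 of the 29 had a shared region. With assignment stopped at 10 kb, 0 of the 29 had an inhibitor-only region. None of 20 NRF2 response genes had an inhibitor-only region, and 17 of them had a shared region. Median gene length was 16.7 kb in the AhR list, 9.83 kb in the hepatocyte list and 18.7 kb in the NRF2 list. It was 24.2 kb for all genes, and gene length was not adjusted for.

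Fatty acid oxidation genes had regions in 3 of 24 cases. PPARGC1A, a coactivator of mitochondrial genes, had 2 beside 21 shared regions, and CPT1A, of the carnitine shuttle, and ACADL, an acyl-CoA dehydrogenase, had 1 each. The bile salt export pump gene ABCB11 was the 1 of 17 bile acid genes with a region, and that region overlapped both an AhR and a C/EBPα peak. Of 18 hypoxia genes, PDK1, a kinase that inhibits pyruvate dehydrogenase, had 2 and EPAS1, which encodes HIF-2α, had 1. Of 9 genes of riboflavin handling, ENPP1 had 1, and of 25 mitochondrial flavoprotein genes, PRODH, proline dehydrogenase, had 1. Lipogenesis had 2 of 18 (LPIN1 and PPARG), sterol synthesis 1 of 18 (MVK), gluconeogenesis 1 of 14 (SDS), the integrated stress response 1 of 17 (PSAT1) and acute phase 1 of 20 (IL6R).

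Of 18 immediate early genes, 4 had a region within 50 kb, 22.2% beside the 12% of all genes, and 1 had a region within 10 kb. FOSL2, an AP-1 subunit, had 2 regions beside 21 shared and 2 untreated-only ones. The ERK phosphatase genes DUSP5 and DUSP6 and the zinc finger factor gene EGR1 had 1 each and 0 untreated-only regions. Untreated-only regions numbered 5 at FOS and 1 at JUN, and 0 at the AP-1 genes FOSB, FOSL1, JUNB and JUND. FOS, JUN, FOSB, FOSL1, JUNB and JUND, named after their values were seen, had 0 inhibitor-only regions. The DUSP6 region overlapped an AhR peak. TGFβ and mesenchymal genes had 2 of 18 (CCN2 and ZEB2), the cell cycle 2 of 18 (CCND1 and MKI67) and NF-κB genes 1 of 16 (CCL20).

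Endothelial markers had a region in 5 of 12 genes, 41.7% against 12% of all genes, with a median gene length of 38.9 kb. STAB1, a scavenger receptor of sinusoidal endothelium, had 3 inside the gene beside 2 shared regions, and its relative STAB2 had 1. PECAM1, an adhesion protein of endothelial junctions, had 2 beside 32 shared regions, CDH5, VE-cadherin, had 1 beside 11, and VWF, von Willebrand factor, had 1 beside 20. The VWF region overlapped both an AhR and a C/EBPα peak. Shared regions were assigned to 8 of the 12 genes. Untreated-only regions numbered 4 at PECAM1, 6 at VWF, 1 at CDH5 and 0 at STAB1 and STAB2. Stellate and fibroblast markers had 3 of 14 (DCN, DES and THY1, with an AhR peak in the DCN region), macrophage and leukocyte markers 2 of 15 (MARCO and PTPRC), and cholangiocyte markers 1 of 10 (CFTR, with both factors). A region near a gene is no measure of its expression, and the lists are small.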

How the data were processed

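HepG2 H3K27ac, AhR and C/EBPα ChIP-seq peak lists were analysed. The authors deposited positions (a name, chromosome, start, end and strand sign in 5 columns) with no score, signal or count. Bowtie2, HOMER and the builds hg38 and mm10 come from the submitters' processing notes, while the sources used here give no versions, caller settings or merged peak sets. Per the labels' protocols, H3K27ac chromatin was fixed with formaldehyde, and AhR and C/EBPα chromatin with disuccinimidyl glutarate and then formaldehyde. Mouse lists were not used. Regions overlapped when they shared at least 1 bp. Shares carry 95% Wilson intervals and differences of shares Newcombe intervals, with no p-value, since the lists have no replicates. Genes and promoter windows came from RefSeq tables of GRCh38.p14, the assembly of hg38, and genes were assigned to the nearest protein-coding gene body within 50 kb. Distances to starts and windows leave out chromosome 8. The planned 300 bases round each centre needed a genome, which was not used here, so sequence was read only in promoter windows. The printed sequences therefore follow the availability of windows, not the planned rule.

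The genes named were the 15 with the most regions, 5 AhR genes whatever their value, and list genes with 2 or more regions. Regions named were the 5 widest, the 5 with the highest merge number (1 of these is not reported here), up to 10 with both factors, and the densest 100 kb. The members, lists and tests were chosen with earlier results of these data known. Overlap, gene assignment, distance and motif routines were tested on simulated data, and 5000 of 5000 simulated assignments were recovered. Software was Matplotlib 3.10.9, SciPy 1.17.1, pandas 2.3.3 and NumPy 2.4.6 under Python 3.11.15.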

Additional observations from a re-analysis of the deposited data

How the results depend on the processing

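Counting only factor peaks with a merge number of 2 or more lowered the AhR share of the inhibitor-only regions from 9.36% to 1.93% and the C/EBPα share from 9.51% to 6.04%, by construction, since fewer peaks were counted. With centres within 500 bp in place of overlap, 4.89% of the regions, and not 0, had a partner in the untreated list, because the window is wider. With all genes of the table, 55.6% lay inside a gene, against 40.8% for protein-coding genes. Of the 357 list genes, 17 had a region when assignment stopped at 10 kb and 1 when the region had to lie within 1 kb of a gene end, against 36 at 50 kb. The other alternatives moved the AhR share to between 9.28% and 10% and the C/EBPα share to between 9.26% and 10.2%. Of all alternatives, 2 were chosen after seeing the data: regions over 1 kb from every untreated region (AhR 9.74%, C/EBPα 9.76%), and the AhR core counted only in the covered part of the promoter windows (23.4%, against 31.9%). Base composition over whole regions was not run, since no genome was used here. No paired analysis was possible because the lists hold no value per library, and for the same reason no replicate could be left out. Depth is unknown.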

Other observations

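Most genes with an assigned inhibitor-only region also had an assigned shared one, but 363 did not, and 240 had no assigned region of the untreated list. Each region was assigned only to its nearest gene, so a region near or inside such a gene can be counted at another gene. Of all protein-coding genes, 64.2% had a shared region. Of the 240 genes without an assigned region of the untreated list, 15 had 2 or more inhibitor-only regions. SMOC2, which encodes a secreted calcium-binding matrix protein, had 3. GAL, the galanin neuropeptide gene, had 2, and both overlapped an AhR peak. The others with 2 each were ABTB1, ADORA1, BPIFA3, CCNG2, FCMR, FOXB2, GRHL3, HS3ST4, MINAR2, MTMR6, MUC2, SHANK1 and STXBP5L. These genes were singled out after their values were seen, and no test was made of them.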
